A study of Mus musculus with 4 samples.

Results

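The Hippo pathway is a kinase cascade that restrains growth by keeping a pair of transcriptional coactivators, YAP and TAZ, out of the nucleus. When the cascade is off, YAP and TAZ enter the nucleus and bind TEAD factors, which carry them to DNA and switch on target genes. In the liver the pathway is known for its control of organ size and of the choice between hepatocyte and bile duct fates, and in fibroblasts YAP responds to cell spreading and tension.

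Expression of 10 genes of this pathway was examined in bulk RNA-seq of mouse embryonic fibroblasts (MEFs) undergoing conversion to hepatocyte-like cells. The genes were chosen by name among the 55397 genes of the deposited table. They are the coactivator genes Yap1 and Wwtr1 (which encodes TAZ), the TEAD factors Tead1 and Tead4, the kinase Lats2, the scaffold genes Amotl1, Amotl2 and Ajuba, and the YAP targets Ankrd1 and Axl. All 10 were in the table, and all 10 passed the minimum mean of 10 normalized counts that 15809 genes passed.

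The cells were C57BL/6J MEFs from E13.5 embryos, homozygous for the conditional Prox1 allele, Prox1(fl/fl), in both groups. Every culture received the 4in1 lentivirus, which encodes the hepatocyte reprogramming factors, and was grown in hepatocyte medium until day 14. The 2 libraries labelled Prox1 KO also received lentivirus for a Cre and GFP fusion, and the 2 control libraries received a non-functional delta Cre with GFP (dCre). Cre therefore reached a mixed culture by infection, and the share of cells infected is not given in the sources used here. The comparison is of active with non-functional Cre in floxed cells, a design aimed at loss of Prox1, a homeobox transcription factor of hepatocytes. No group had active Cre without the floxed allele. Loss of Prox1 and the activity of Cre itself therefore cannot be told apart here.

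Prox1 itself did not check the labels. It had 72.7 and 61.6 normalized counts (reads divided by the library's size factor) in the libraries labelled Prox1 KO of replicates 1 and 2, against 60.6 and 25.5 in the controls, a log2 fold change of 0.75 (SE 0.27, limma, adjusted p = 0.0936). Which exons Cre removes is not given in the sources used here, the counts are for the whole gene, and the directions below rest on the labels. The libraries held 42469031 to 48524008 reads on genes. All 10 fibroblast markers of a fixed list were detected, with Col1a1 at 251990 to 300038 normalized counts, while the hepatocyte marker Alb had 3838 to 5021.

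TEAD factors recognise the bases CATTCC, so the stretches of member promoters with this motif are shown first. Promoter windows from 250 bases before to 50 bases after the annotated start were taken from RefSeq (GRCm38.p6), where 8 of the 10 members were matched, and Tead1 and Tead4 were not. The motif, on either strand, occurred in 7 of these 8 members (Yap1, Wwtr1, Ankrd1, Amotl2, Lats2, Ajuba and Axl), and not in the window of Amotl1. For Lats2 the match was in the window of start 1, and the window of start 2 held none. It occurred in 14.7% of all 32851 windows, and in 16.6% of gene symbols when any window of a gene counted. In the wider lists described below, it occurred in 4 of 15 matched YAP targets outside the members, Ccn1 among them. The counts were 3 of 13 for further kinases and activators, and 6 of 15 for scaffold, junction and cofactor genes. Ankrd1 and Ajuba each held 2 copies, as did 1.36% of all windows with 2 or more. Each stretch below has 30 bases on the strand of the gene, with the motif or its reverse complement GGAATG in capitals, and Ccn1, a standard YAP target outside the 10 genes, is included for comparison.

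Yap1 (chr9:8004720-8004749, minus strand): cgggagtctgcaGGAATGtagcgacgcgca
Wwtr1 (chr3:57576029-57576058, minus strand): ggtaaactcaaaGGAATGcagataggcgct
Ankrd1, site 1 (chr19:36120037-36120066, minus strand): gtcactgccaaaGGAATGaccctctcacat
Ankrd1, site 2 (chr19:36119950-36119979, minus strand): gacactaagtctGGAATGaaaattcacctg
Amotl2 (chr9:102717727-102717756, plus strand): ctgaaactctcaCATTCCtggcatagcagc
Lats2 (chr14:57746102-57746131, minus strand): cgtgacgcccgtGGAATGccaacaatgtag
Ajuba, site 1 (chr14:54577830-54577859, minus strand): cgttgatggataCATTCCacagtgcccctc
Ajuba, site 2 (chr14:54577808-54577837, minus strand): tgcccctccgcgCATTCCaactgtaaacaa
Axl (chr7:25788949-25788978, minus strand): ggaaattctacaGGAATGtttaccagaccc
Ccn1 (chr3:145650071-145650100, minus strand): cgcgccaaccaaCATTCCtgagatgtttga

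Counted from the start, the motifs began between position -233, in Axl, and position 5, in Lats2. The annotated starts differ between sources. The outermost GENCODE start of Ankrd1 lies 255 bases from the RefSeq start, that of Amotl2 lies 1132 bases away and that of Lats2 12265 from start 1. For Ajuba and Axl the distances were 103 and 28 bases. In these genes the stretch checked just after the RefSeq start was not found in a GENCODE transcript. For Amotl1, the member with no match, the window sits 30056 bases from the outermost start, and the sequence at that start was not searched. A match to these letters is not evidence that a TEAD factor binds there, and no binding was measured in these libraries.

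**Figure D1:**
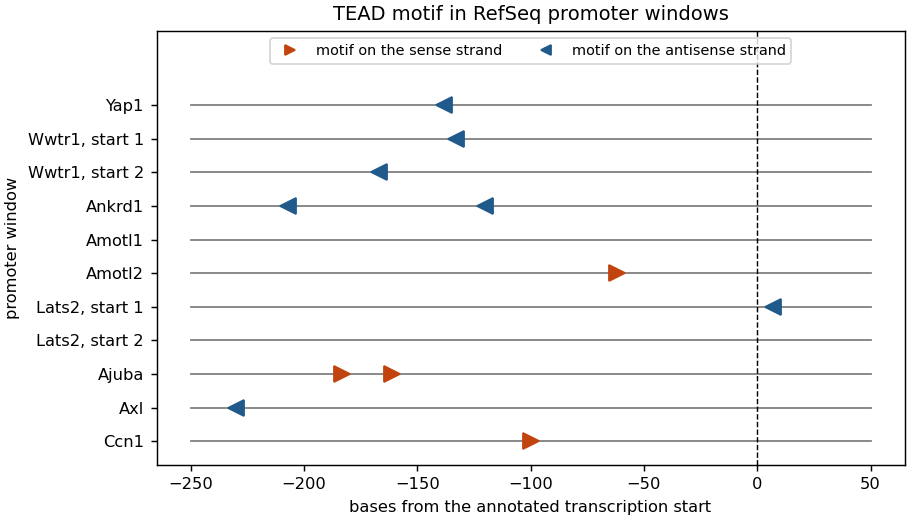
Promoter windows of 8 members and Ccn1 (rows, with a row for each annotated start), plotted as bases from the transcription start, with arrowheads at matches to the TEAD motif on the sense or antisense strand. Ankrd1 and Ajuba hold 2 matches each, and the windows of Amotl1 and of Lats2 start 2 hold none.

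Between the groups, 3 of the 10 genes passed an adjusted p of 0.05 in limma, with Lats2 and Amotl1 higher and Ankrd1 lower in the libraries labelled Prox1 KO. Among all 15809 genes tested, 11.4% passed in either direction, 5.09% higher and 6.29% lower. Every member had over 1000 normalized counts in every library, and of the 7115 genes with a mean of at least 1000, 16.0% passed, 8.64% higher and 7.39% lower. Among 10 genes, 1 call moves the share by 10 percentage points, and nothing particular to these genes is read from the difference. The median log2 fold change of the 10 genes was 0.06, against -0.0022 over all genes tested. It was 0.09 between the libraries of replicate 1 and 0.06 between those of replicate 2, and 8 of the 10 genes had the same sign in each pair, as had 65.8% of all genes tested. The groups did not overlap for 3 members that were higher and 1 that was lower. The same held for 3451 higher and 3572 lower genes of the 15809 tested, so a lack of overlap is common and sets no member apart.

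**Figure D2:**
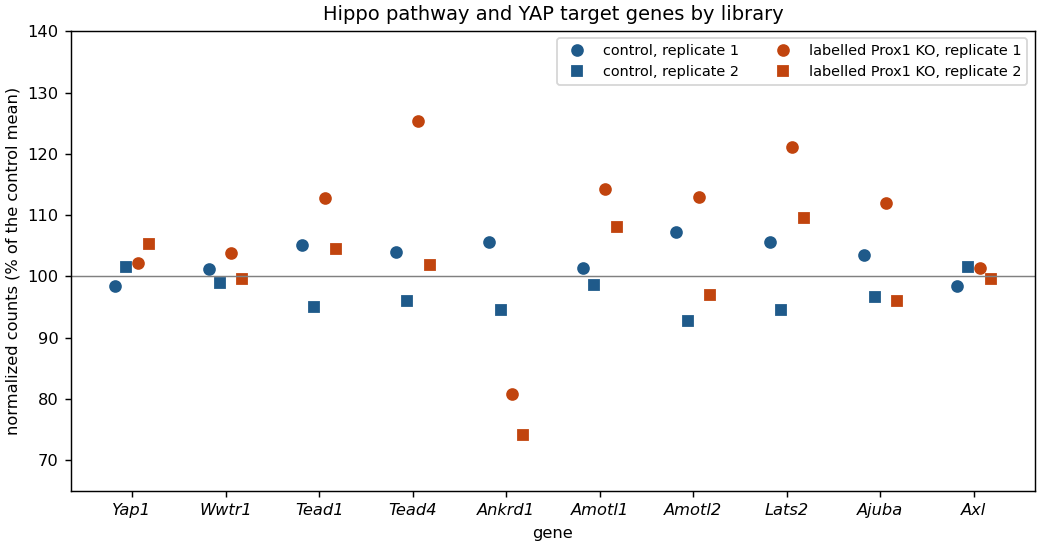
Normalized counts of the 10 genes in each of the 4 libraries, as a percentage of the gene's control mean (vertical axis, not starting at 0), with colour for the group and symbol for the replicate. Both libraries labelled Prox1 KO lie below both controls for Ankrd1, and above both for Lats2, Amotl1 and Yap1. Of the 15809 genes tested, 3572 lie below both controls and 3451 above both.

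The coactivators differed little between the groups. Yap1 (ENSMUSG00000053110; GRCm38 chromosome 9, 7931999 to 8004596, minus strand) had 8455 and 8703 normalized counts in the pair of libraries labelled Prox1 KO of replicates 1 and 2, and 8142 and 8399 in the controls. The groups did not overlap, but the log2 fold change was 0.05 (95% interval -0.03 to 0.14, limma, adjusted p = 0.462). Wwtr1 (ENSMUSG00000027803; chromosome 3, 57455649 to 57575910, minus strand) had 5496 and 5275 against 5357 and 5235. Its groups overlapped, with a log2 fold change of 0.02 (95% interval -0.06 to 0.11, limma, adjusted p = 0.785). Yap1 overlaps an antisense gene, Gm20416, which is listed at 0 in all 4 libraries. YAP and TAZ are controlled mainly by phosphorylation and location, which RNA levels do not measure.

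The TEAD factors bind DNA and are the partners through which YAP and TAZ act. Tead1 (ENSMUSG00000055320; chromosome 7, 112679318 to 112906807, plus strand) had 10464 and 9692 normalized counts in the pair of libraries labelled Prox1 KO and 9747 and 8814 in the controls. Within each replicate number the library labelled Prox1 KO was the higher, while the groups overlapped across numbers. The log2 fold change was 0.12 (SE 0.04, 95% interval 0.04 to 0.20), and the adjusted p of 0.0652 from limma missed the threshold. Tead4 (ENSMUSG00000030353; chromosome 6, 128224288 to 128300823, minus strand) had 1482 and 1204 against 1230 and 1135. Its change was uneven, with a log2 fold change of 0.27 in replicate 1 and 0.09 in replicate 2, and 0.18 over both (SE 0.06, limma, adjusted p = 0.0905). Neither TEAD gene passed in any of the 11 other settings of the test, and the value of Tead1 was 0.07 when GC content and length were corrected for. The remaining factors of the family did not pass either, with log2 fold changes of -0.02 for Tead2 (limma, adjusted p = 0.836) and 0.10 for Tead3 (limma, adjusted p = 0.225).

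Lats2 encodes a kinase that phosphorylates YAP and TAZ, and its gene is itself a YAP target, part of a negative feedback loop. Lats2 (ENSMUSG00000021959; chromosome 14, 57689662 to 57758388, minus strand) had 2616 and 2366 normalized counts in the pair of libraries labelled Prox1 KO and 2280 and 2042 in the controls. Both libraries labelled Prox1 KO were above both controls, and the change was alike in the replicate pairs, 0.20 and 0.21 on the log2 scale. The log2 fold change was 0.21 (SE 0.05, limma, adjusted p = 0.0124), a rise of 15.3%. It passed in 8 of 11 other settings, where its adjusted p ranged from 0.0042 to 0.69, and DESeq2 with the same block gave 0.278. Gm49361 holds 56.1% of the 100-base windows from the longest Lats2 transcript. It is an overlapping gene on the same strand, listed at 0 in all 4 libraries, and how shared reads were assigned is not given. For the other 9 genes this share was 0%. Lats1, the related kinase, differed by 0.05 on the log2 scale (limma, adjusted p = 0.531).

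The angiomotins and Ajuba are junction proteins that hold YAP in the cytoplasm or restrain the LATS kinases. Amotl1 (ENSMUSG00000013076; chromosome 9, 14541966 to 14645056, minus strand) had 15520 and 14671 normalized counts in the pair of libraries labelled Prox1 KO and 13777 and 13389 in the controls. The groups did not overlap, and Amotl1 rose by a log2 fold change of 0.15 (SE 0.04, limma, adjusted p = 0.0193), or 11.1%. It passed in 7 of 11 other settings, where its adjusted p ranged from 0.00479 to 0.636. It did not pass with DESeq2 and the block (adjusted p = 0.107), nor when GC content and length were corrected for, where its log2 fold change was 0.09 (limma, adjusted p = 0.0684).

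Amotl2 (ENSMUSG00000032531; chromosome 9, 102716672 to 102733418, plus strand), a scaffold gene that is also induced by YAP, had 17835 and 15316 against 16939 and 14632. The replicate number separated these libraries more than the group did, and the log2 fold change was 0.07 (95% interval -0.01 to 0.15, limma, adjusted p = 0.294). The third angiomotin gene, Amot, with a log2 fold change of 0.17, is described with the wider lists. Ajuba (ENSMUSG00000022178; chromosome 14, 54567472 to 54577558, minus strand) encodes a LIM protein that holds LATS kinases at junctions under tension. It had 2487 and 2130 normalized counts against 2297 and 2145, and its direction differed between the replicate pairs, with 0.11 and -0.01. The log2 fold change was 0.05 (95% interval -0.06 to 0.16, limma, adjusted p = 0.597).

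Ankrd1 had the largest change of the 10 genes. It encodes a nuclear ankyrin repeat protein of stressed muscle and is among the most used reporters of YAP activity. Ankrd1 (ENSMUSG00000024803; chromosome 19, 36111961 to 36120099, minus strand) had 1600 and 1468 normalized counts in the pair of libraries labelled Prox1 KO and 2089 and 1870 in the controls. Both libraries labelled Prox1 KO lay below both controls, and the log2 fold changes in the replicate pairs were close, -0.38 and -0.35. Over both, Ankrd1 fell by 0.37 on the log2 scale (SE 0.05, limma, adjusted p = 0.000346), and its count fell by 22.4%. It passed in 9 of 11 other settings, with adjusted p from 3.52e-08 to 0.315, and ranked 211th by p among the genes tested. It was the only member that passed with DESeq2 and the block, under which 3.83% of the 12595 genes given an adjusted p passed, and it did not pass in either setting without the block.

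Axl, a receptor tyrosine kinase induced by YAP in many cell types, showed no change beyond the spread. Axl (ENSMUSG00000002602; chromosome 7, 25757273 to 25788705, minus strand) had 42094 and 41377 normalized counts in the pair of libraries labelled Prox1 KO and 40889 and 42183 in the controls. The libraries overlapped, and the log2 fold change was 0.01 (95% interval -0.08 to 0.09, limma, adjusted p = 0.944). Its sign changed with the scaling, to -0.08 under quantile normalization, so no direction is given.

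**Figure D3:**
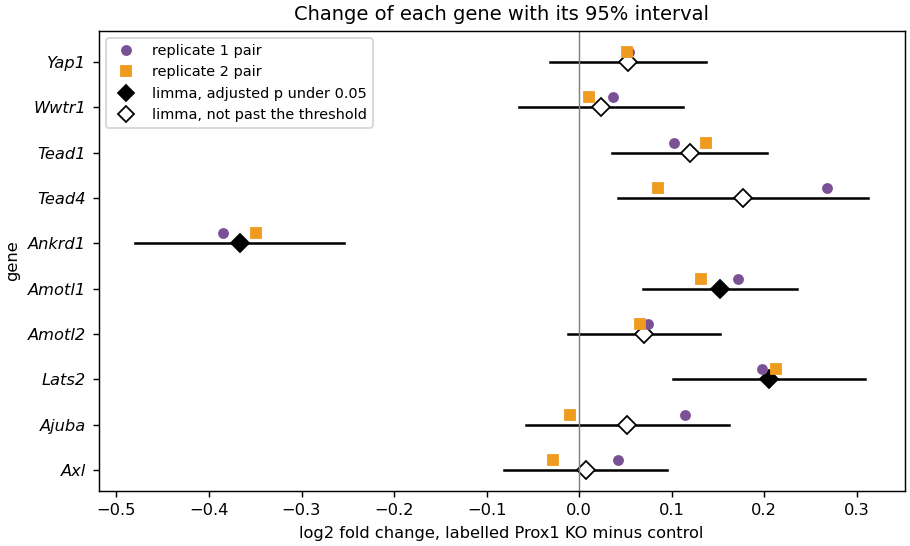
Log2 fold change of each gene (horizontal axis, labelled Prox1 KO minus control) from limma as a diamond with its 95% interval as a line, filled where the adjusted p was under 0.05, with the values of each replicate pair as a circle and a square. Ankrd1 lies at -0.37, Lats2 at 0.21 and Amotl1 at 0.15, and the intervals of Yap1, Wwtr1, Amotl2, Ajuba and Axl include 0.

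Per kilobase of annotated exon, Axl was the most abundant of the 10 transcripts, at 8124 to 8381 normalized counts per kb over the 4 libraries. Amotl2 followed at 2326 to 2836, Amotl1 at 1330 to 1542, Wwtr1 at 1096 to 1150 and Yap1 at 880 to 940, and no neighbours among these genes overlapped in range. Tead1 at 650 to 771, Ajuba at 584 to 682 and Ankrd1 at 509 to 724 overlapped with their neighbours in this order, as did the lowest genes, Tead4 at 315 to 412 and Lats2 at 293 to 375. In the controls Ankrd1 had 724 and 648 per kb and Ajuba 630 and 588. In the libraries labelled Prox1 KO Ankrd1 had 555 and 509, and Ajuba 682 and 584. Exon lengths come from all annotated transcripts of a gene, which lowers the value of genes with long unused exons.

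**Figure D4:**
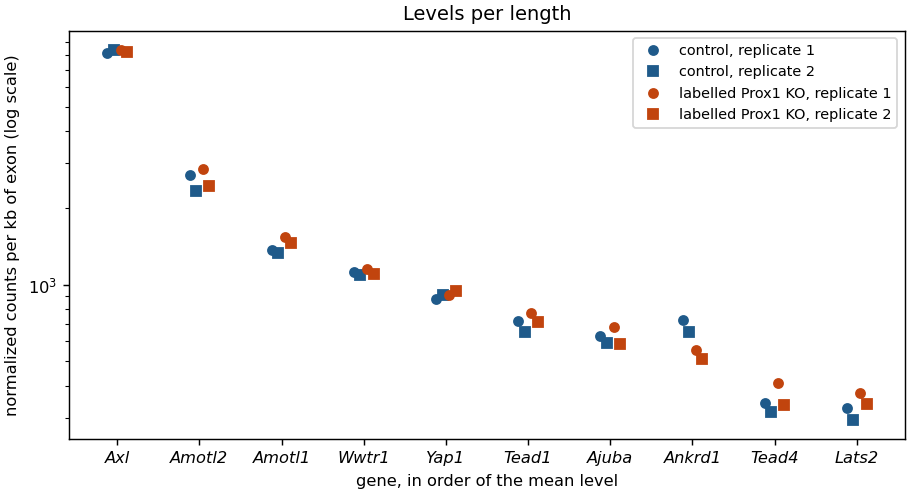
Normalized counts per kilobase of annotated exon (vertical axis, log scale) for the 10 genes in order of their mean, with a point for each of the 4 libraries. Axl stands highest at 8124 to 8381, and Tead4 and Lats2 lie lowest with overlapping ranges.

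The kinases and activators of the cascade were read from a fixed list of 16 further genes. Of these, 3 passed as higher and 1 as lower, with a median log2 fold change of 0.06. Among all genes tested, 5.09% passed as higher and 6.29% as lower, and 8.64% and 7.39% among those with a mean of at least 1000. In so short a list, nothing particular to these genes is read from the difference. Mob1b, a coactivator of the LATS kinases, rose from 1513 and 1427 normalized counts in the controls to 1888 and 1675, a log2 fold change of 0.28 (SE 0.06, limma, adjusted p = 0.00414). Nf2, the tumour suppressor Merlin that activates LATS at the membrane, rose from 5530 and 4987 to 6716 and 5762, a log2 fold change of 0.24 (SE 0.04, limma, adjusted p = 0.00133). Taok1, which activates the MST kinases, rose by 0.16 (limma, adjusted p = 0.0339), but by 0.10 and without passing when GC content and length were corrected for (limma, adjusted p = 0.0988). Wwc1, the upstream activator Kibra, went the other way. It had 1013 and 907 normalized counts in the pair of libraries labelled Prox1 KO and 1137 and 1348 in the controls, a log2 fold change of -0.37 (limma, adjusted p = 0.00763) that was -0.17 in replicate 1 and -0.57 in replicate 2. The core kinases Stk3, with a log2 fold change of -0.11 (limma, adjusted p = 0.247), and Stk4, with 0.06 (limma, adjusted p = 0.56), did not pass.

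Of 22 further scaffold, junction and cofactor genes, 6 passed as higher and 2 as lower, with a median log2 fold change of 0.03. The shares of all genes tested were 5.09% higher and 6.29% lower. Among genes with a mean of at least 1000, which every gene of this list had, they were 8.64% and 7.39%. Nothing particular to this list is read from the difference. Dlg5, a polarity protein, rose from 9273 and 9056 to 11055 and 10510, a log2 fold change of 0.23 (limma, adjusted p = 0.00113). Of the LIM protein genes in the list, Zyx rose by 0.21 (limma, adjusted p = 0.00443), with 0.28 in replicate 1 and 0.14 in replicate 2, and Lpp rose by 0.19 (limma, adjusted p = 0.00422). Limd1, with 0.05 (limma, adjusted p = 0.501), and Wtip, with -0.06 (limma, adjusted p = 0.583), did not pass. Amot rose by 0.17 (limma, adjusted p = 0.0381), Ptpn14, a phosphatase that binds YAP, by 0.15 (limma, adjusted p = 0.0221) and Vgll3, a TEAD cofactor, by 0.13 (limma, adjusted p = 0.0462). Amot had 0.26 in replicate 1 and 0.08 in replicate 2, and lost its call in 5 of 11 other settings, quantile normalization (limma, adjusted p = 0.0825) among them. Vgll3 lost its call in 8 of 11, and Ptpn14 had 0.08 with GC content and length corrected for (limma, adjusted p = 0.139). The 2 genes that fell encode the giant cadherins that bind each other across cells. Dchs1 had 3396 and 4045 normalized counts in the pair of libraries labelled Prox1 KO and 4071 and 4570 in the controls, a log2 fold change of -0.22 (limma, adjusted p = 0.00463), and Fat4 fell by 0.14 on the log2 scale (limma, adjusted p = 0.0381). Nf2, Dlg5, Zyx and Lpp were the 4 genes of both lists that passed with DESeq2 and the block, and no gene of the pathway lists passed without the block.

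Other YAP targets moved in both directions. Of 26 tested, 7 passed as higher and 3 as lower, with a median log2 fold change of 0.06. Ptpn14 is both in this list and among the scaffold, junction and cofactor genes, and counts under each throughout. Against this, 5.09% of all genes tested passed as higher and 6.29% as lower. The shares were 8.64% and 7.39% among genes with a mean of at least 1000, which not every target reached. Nothing particular to the targets is read from the difference. Ccn2, among the best known targets, rose from 32650 and 26802 to 40210 and 29989, a log2 fold change of 0.23 (SE 0.04, limma, adjusted p = 0.00254). Its groups overlapped across replicate numbers, and the change was 0.30 in replicate 1 and 0.16 in replicate 2. Ccn1, its close relative, had 28994 and 18380 in those labelled Prox1 KO and 27928 and 18043 in the controls. Ccn1 differed by replicate number and hardly by group, with a log2 fold change of 0.04 (limma, adjusted p = 0.587).

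Tgfb2, a TGF-beta ligand, rose by 0.24 (limma, adjusted p = 0.00254) and Thbs1, a matrix protein, by 0.18 (limma, adjusted p = 0.0371), although Thbs1 had 0.09 and did not pass under quantile normalization (limma, adjusted p = 0.409). Nuak2, a kinase of the same signature, rose by 0.22 (limma, adjusted p = 0.0236). Lower targets were Nt5e, the ectonucleotidase CD73, with -0.40 (limma, adjusted p = 0.00278), the growth factor Areg with -0.56 (limma, adjusted p = 0.0394) and Igfbp3 with -0.18 (limma, adjusted p = 0.0229). Igfbp3 had -0.29 in replicate 1 and -0.07 in replicate 2, its groups overlapped, and it did not pass under quantile normalization (limma, adjusted p = 0.0552). Areg had 83.1 to 169 normalized counts, the lowest level of the called targets, and passed neither under quantile normalization (limma, adjusted p = 0.0993) nor with GC content and length corrected for (limma, adjusted p = 0.0574). With DESeq2 and the block 4 targets passed, all higher, among them Ccn2 and Thbs1.

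**Figure D5:**
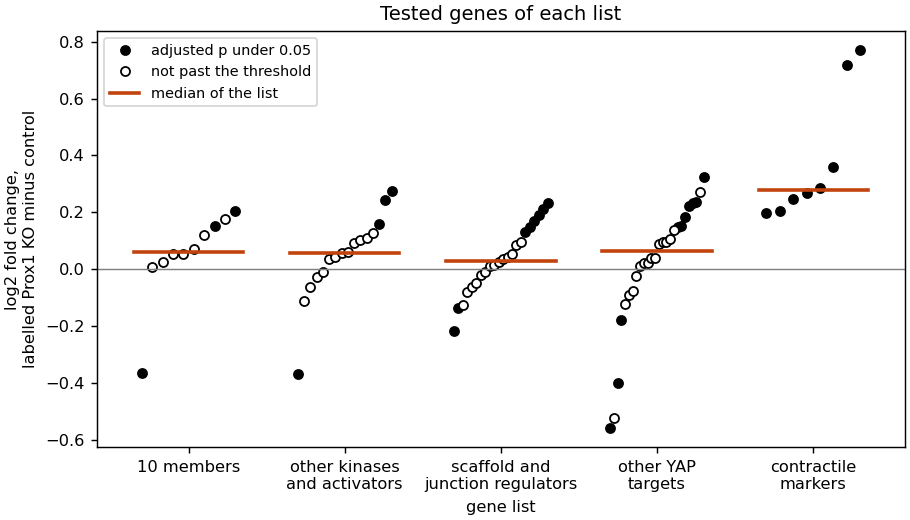
Log2 fold changes (vertical axis, labelled Prox1 KO minus control) of the tested genes in 5 lists (horizontal axis), each point a gene, filled where the adjusted p was under 0.05 in limma, with the list's median as a line. The medians of the 4 pathway lists lie between 0.03 and 0.06, and that of the contractile markers at 0.28. The other marker lists are not plotted. Their medians were -0.92 for hepatocyte, -0.39 for fibroblast, -0.34 for cell cycle, -0.30 for bile duct, 0.09 for immune and 0.67 for endothelial markers.

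Markers of other cell states moved between the same libraries. Below, markers counted as higher or lower are limma calls, except where both libraries are named. For comparison, 5.09% of all 15809 genes tested were called higher and 6.29% lower. Of the same genes, 3451 lay above both controls in both Prox1 KO libraries, and 3572 below both. All 8 contractile markers of a smooth muscle and myofibroblast list were higher in both libraries labelled Prox1 KO, and their summed normalized counts were 111618 to 121969 there against 96066 to 97940 in the controls. Of 10 fibroblast markers, 6 were lower and 0 higher (sums of 798096 to 1008280 against 927819 to 1108430). Among 10 hepatocyte markers 8 were lower and 0 higher (19882 to 22014 against 29215 to 32881). Alb was among those not called, with a log2 fold change of -0.10 (limma, adjusted p = 0.158). Of the 6 tested of 8 bile duct markers, 3 were lower and 0 higher (sums over all 8 of 86632 to 111684 against 90319 to 128521). Spp1, which was not called, made up most of these sums, at 81072.5 and 106099 against 83444.5 and 120511. The sums thus say little of the 3 called markers. Of 8 cell cycle markers, 6 were lower and Rrm2 was higher, with sums of 9985 to 11808 against 8944 to 9820. Rrm2 made up most of these sums, at 8334 and 6065 against 5210 and 3922, and each of the other 7 markers was lower in both libraries labelled Prox1 KO than in both controls. Endothelial and immune markers were scarce, with sums of 647 to 1070 and 285 to 360 normalized counts, and Cldn5 and Adgre1 listed at 0 in every library. The 1 called marker, Kdr, was higher and made up most of the endothelial sums, at 938 and 770 against 564 and 509. These samples are bulk RNA, so fewer cells of a type and less RNA per cell cannot be told apart, and the part of these shifts in the changes of Ankrd1, Lats2, Amotl1 and the wider lists was not tested.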

How the data were processed

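Total RNA of 4 MEF cultures was sequenced from paired-end, strand-marked (dUTP) libraries. The authors mapped reads to mm10 with STAR and deposited normalized counts, a signal per gene made by dividing read counts by DESeq2 size factors. The counting tool, its strand setting and the annotation release are not given in the sources used here. A second deposited table holds the authors' comparison (shrunken log2 fold changes and p-values) and was not used. Every value was a whole multiple of the library's smallest positive value (100% within 0.001), so reads were recovered, 42469031 to 48524008 per library.

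Genes with a mean of at least 10 (15809 of 55397) were tested on log2(normalized counts + 1), where fold changes of low genes come out too small, with limma 3.58.1 in R 4.3.3. The fit had an intensity trend, the replicate number as a block and Benjamini-Hochberg adjustment over all genes tested, with a threshold of 0.05, two-sided. The block follows the methods, which use the MEF line as a covariate. The labels do not say that a number is a line or that libraries came from separate cultures, so p-values speak only of these libraries. With the block, differences shared by a replicate number are taken out. What remains for each gene is 1 disagreement between the replicate pairs, combined with a variance estimated across all genes tested. Standard errors, intervals and p-values thus rest largely on that shared variance. Same-numbered libraries deviated together (correlation across genes 0.402), and Xist was at 14495 and 13944 normalized counts in replicate 1 but 4.89 and 1.06 in replicate 2. Libraries of 1 group differed beyond counting error in 34.3% and 35.4% of tested genes, so none was counted as a duplicate.

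Members and lists were chosen with earlier results of these data known. Named genes are the 10 members, called genes of 3 pathway lists (at most the 8 of largest change per list), Ccn1, Ccn2 and Prox1. One gene that this rule names is not reported here. Tead2, Tead3, Lats1, Stk3, Stk4, Limd1, Wtip, Kdr, Rrm2, Spp1, Col1a1 and Alb were added after their values were seen. Marker lists covered contractile, fibroblast, hepatocyte, bile duct, cell cycle, endothelial and immune genes. Coordinates and exon lengths come from GENCODE vM21 (GRCm38). Strand of counting being unknown, reads of genes with antisense partners (Yap1, Taok1, Tead2, Lpp, Zyx, Ptpn14, Fat4, Dchs1, Ccn2, Thbs1, Tgfb2 and Prox1) may be mixed, and Dlg5 overlaps Gm49098 on its own strand. Alternatives were no block, pseudocounts of 0.1 and 10, other filters, quantile and TMM normalization, edgeR 4.0.16 and DESeq2 1.42.0 on recovered reads, and each replicate left out. The correction for GC content and length was added after the data were seen. The scripts were run on simulated data with no replicate effect and with changes larger than those of the members. That run therefore does not speak to the replicate block or to changes of the size reported here.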

Additional observations from a re-analysis of the deposited data

How the results depend on the processing

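The number of calls depended on the replicate block and on the tool. Without the replicate block, limma called 0 genes (1783 at an unadjusted p under 0.05) against 1798 with it, 0 of the 10 members (3 unadjusted) against 3, 0 other Hippo genes (7 unadjusted) against 12, and 0 other YAP targets (3 unadjusted) against 10. DESeq2 with the block called 483 genes, 1 member (Ankrd1), 4 other Hippo genes and 4 other YAP targets, and without the block 160 genes, 0 members (2 unadjusted), 0 other Hippo genes (6 unadjusted) and 0 other YAP targets (3 unadjusted). The cause was not tested. edgeR with the block called 1800 genes and the same 3 members as limma. Correcting for GC content and length, an alternative chosen after seeing the data, gave 2095 genes, 2 members, 8 other Hippo genes and 7 other YAP targets. Axl, which passed in no setting, changed sign to -0.0772 under quantile normalization and to -0.0123 with that correction. The other members, the named called genes of the pathway lists, Ccn1, Ccn2 and Prox1 kept their direction in every setting with both replicates. Tead2, Tead3, Lats1, Stk3, Stk4, Limd1, Wtip and the marker genes were not followed across settings.

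Leaving out a replicate leaves 1 pair and no test. The values then ranged from -0.38 to -0.35 for Ankrd1, 0.20 to 0.21 for Lats2 and 0.13 to 0.17 for Amotl1. Each value is that of a single pair, so no stability is read from them.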
